A study of Mus musculus with 4 samples.

Results

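The 10 genes described here encode transcription factors that specify or maintain the macrophage lineage: Spi1, Cebpa, Cebpb, Irf8, Irf5, Runx1, Klf4, Mitf, Tfec and Bhlhe40. They were chosen by symbol, with earlier results of these data known but by no threshold on a value, from the 16360 gene symbols of the count table, and all 10 were found and passed the filter on low counts. They were measured in recruited alveolar macrophages, the macrophages that derive from blood monocytes and enter the airspaces after injury, of male mice of the strain labelled CD57/Bl6 aged 8 to 10 weeks. One group carried the R213G variant of EC-SOD, extracellular superoxide dismutase, on both alleles, and the other was wild type (WT). EC-SOD is an enzyme that cells release to remove superoxide outside the cell. Both groups had received intratracheal bleomycin (100 µl, 1 U/ml), which damages the lung epithelium and leads to fibrosis, and no untreated group was among the samples. On day 7 the cells were isolated by flow sorting on high CD64, high CD11b and low Siglec-F, and polyadenylated RNA was sequenced in 2 libraries per genotype. The labels do not say whether a library came from 1 mouse or from a pool, so the p-values rest on the spread between these libraries alone, which may be technical.

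The lineage of a macrophage is set by a small group of DNA-binding proteins that act on shared enhancers. PU.1, the product of Spi1, opens myeloid enhancers and works together with C/EBP factors, RUNX1 and interferon regulatory factors, while KLF4 acts in monocytes and the MiT factors and BHLHE40 act in mature macrophages on E-box sequences. In the lung, monocytes that enter after injury carry this programme with them and take on features of alveolar macrophages over time.

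Total counts ranged from 33488569 to 35176210 per library, and the 10 factors had between 2092 and 29992 counts each in a library. Counting error was thus small beside the spread of each factor over the 4 libraries. Values are given as CPM, counts per 1e6 of the TMM-scaled size of a library after the filter. The labelled cell type was checked against its markers. The macrophage lysozyme Lyz2 was at 19065 to 25101 CPM and the lysosomal glycoprotein Cd68 at 1892 to 2342 CPM. Of the genes of the sort gate, Fcgr1 (CD64) was at 243 to 261 CPM and Itgam (CD11b) at 721 to 886 CPM, while Siglecf was at 10.8 to 12.1 CPM. Markers of other cells were summed per library as CPM on total counts. The sum over 10 dendritic cell genes was 284 (R213G) and 265 (WT) in the replicate 1 libraries, and 130.3 and 126 in the replicate 2 libraries, so it was higher in replicate 1 of each genotype. The sums ranged from 12.3 to 21.1 for the 6 neutrophil genes in the table and from 0.227 to 8.64 for 6 lymphoid genes. They ranged from 15.9 to 37.0 for 8 epithelial, endothelial and fibroblast genes and from 296 to 721 for 10 resident alveolar macrophage genes. Most of the resident sum was Chil3 and Ear2. The highest sum, in WT replicate 2, came with Chil3 at 504 CPM, against 134 to 198 CPM in the other libraries. The neutrophil regulator Gfi1 was at 0 counts in all libraries, and S100a8, the highest neutrophil gene, was at 11.1 to 19.7 CPM. R213G replicate 1 had the fewest genes with a count, 13584 against 14598 to 15194 in the other libraries, and the highest level of the non-coding transcript Gm42418, 1689 CPM against 513 to 702 CPM. In bulk RNA, fewer cells of a type and less RNA per cell cannot be told apart.

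Upstream sequences are shown for Cebpb, Klf4 and Tfec, because these 3 factors varied most over the 4 libraries and each was highest in R213G replicate 1. Each is the 250 bases before a RefSeq start (GRCm38.p6), read 5′ to 3′ on the strand of the gene. The windows are chr2:167688665-167688914 on the plus strand for Cebpb, chr4:55532476-55532725 on the minus strand for Klf4 and chr6:16898442-16898691 on the minus strand for Tfec, and no annotated exon lies in any of them. Capitals mark matches to the core motifs of the factors described here, which were searched on both strands: GGAAGT for the ETS core bound by PU.1, TTGCNNAA for C/EBP, AANNGAAA for IRF, TGTGGT for RUNX, CACCC for KLF, and CACGTG, the E-box of MiT and BHLHE40 factors.
Cebpb: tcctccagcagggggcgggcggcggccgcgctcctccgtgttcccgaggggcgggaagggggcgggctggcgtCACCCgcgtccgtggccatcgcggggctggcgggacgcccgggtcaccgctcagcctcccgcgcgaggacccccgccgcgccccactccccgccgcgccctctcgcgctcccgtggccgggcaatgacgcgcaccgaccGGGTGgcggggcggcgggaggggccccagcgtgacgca
Klf4: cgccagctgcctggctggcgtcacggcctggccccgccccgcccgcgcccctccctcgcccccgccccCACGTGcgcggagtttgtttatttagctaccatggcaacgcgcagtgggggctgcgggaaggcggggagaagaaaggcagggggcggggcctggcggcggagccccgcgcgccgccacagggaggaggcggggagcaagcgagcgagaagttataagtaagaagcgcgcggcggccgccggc
Tfec: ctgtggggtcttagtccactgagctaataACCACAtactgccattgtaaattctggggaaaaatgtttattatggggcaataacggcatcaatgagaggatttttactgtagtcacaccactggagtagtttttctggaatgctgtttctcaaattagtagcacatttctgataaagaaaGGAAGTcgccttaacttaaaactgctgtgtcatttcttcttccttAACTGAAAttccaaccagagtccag
The Cebpb window, of 81.6% G and C, held 2 matches to the KLF core. The Klf4 window (74.0% G and C) held 1 E-box. The Tfec window (39.2% G and C) held 1 ETS core, 1 RUNX core and 1 IRF core, none of which overlapped another, so the capitals in the 3 sequences mark different motifs. RefSeq windows were matched for 8 of the 10 factors, 12 windows in all. A KLF core was present in 5 of these 12 windows, an E-box in 2, a RUNX core in 2, an ETS core in 1, a C/EBP core in 1 and an IRF core in 2. Among all 32851 windows of the same length, the shares with a match were 52% for KLF, 6.02% for the E-box, 14% for RUNX, 19.7% for ETS, 9.56% for C/EBP and 21.3% for IRF. A match describes the letters of the window and does not show binding.

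The question was whether R213G macrophages expressed these factors at other levels than WT macrophages. None of the 10 passed the edgeR quasi-likelihood test, with p-values adjusted by Benjamini-Hochberg over all 13575 tested genes and a threshold of 0.05 (adjusted p = 0.9996 for each), where the share called among all tested genes was 0%. At an unadjusted p under 0.05 the count was also 0 of 10, against 2.22% of all tested genes (0.936% higher and 1.29% lower in R213G). The libraries of the 2 genotypes overlapped for each of the 10 factors, while they did not overlap for 28.9% of all tested genes. The log2 fold change (R213G minus WT) was positive for 6 factors and negative for 4, with a median of 0.036, beside -0.0056 over all tested genes. The size of the change, without its sign, had a median of 0.085 over the factors and 0.078 over the 2992 genes at least as abundant as Mitf, the lowest of the 10. The 95% intervals of the fold changes reached from 0.729-fold for the lower bound of Mitf to 1.57-fold for the upper bound of Tfec. Differences within a factor's interval are not excluded with 2 libraries per genotype. The interval is not a limit of detection. In simulated data, 12.4% of genes changed by 1.5-fold and 56.8% of those changed by 2-fold were recovered.

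**Figure D1:**
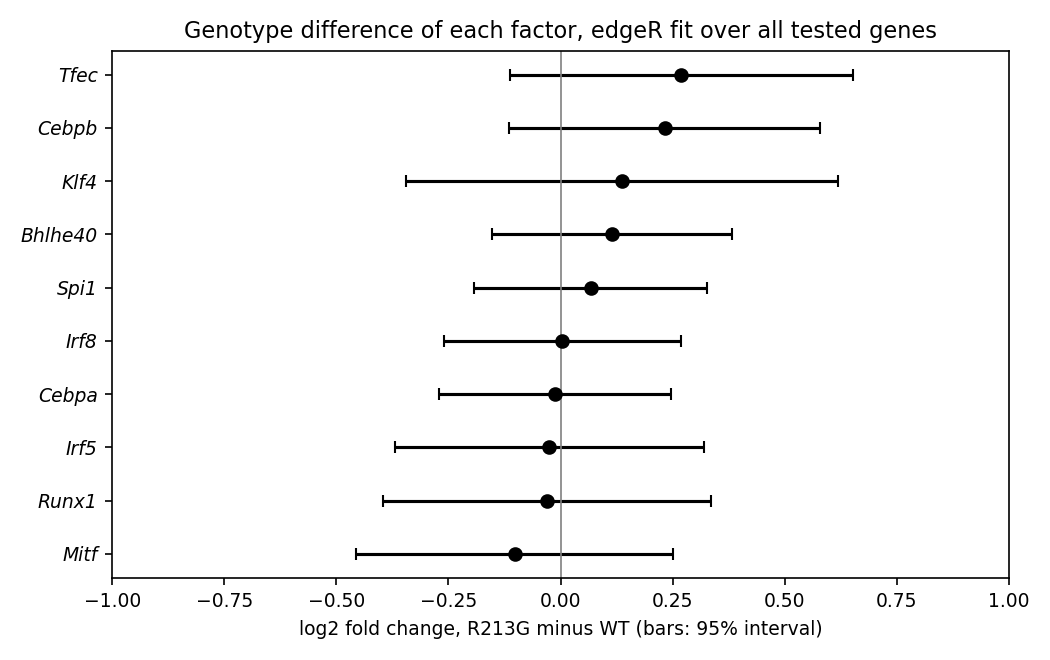
The log2 fold change of each factor, R213G minus WT (horizontal axis), from the edgeR fit over all tested genes, with bars for the 95% interval. All 10 intervals include 0, and they lie between -0.46 and 0.65.

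Spi1 (ENSMUSG00000002111.8, chromosome 2 from 91082390 to 91115756, GRCm38, plus strand) encodes PU.1, the ETS factor required for macrophage development. In R213G it was measured at 495 CPM (replicate 1) and 432 CPM (replicate 2), and in WT at 437 and 448 CPM in the same order, which holds for all pairs of values that follow. Both WT libraries lay between the R213G libraries. The means were 464 ± 44.2 CPM in R213G and 443 ± 7.76 CPM in WT (SD, n = 2), with a log2 fold change of 0.067 ± 0.12 (SE) and a 95% interval from -0.19 to 0.33.

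Cebpa and Cebpb encode the C/EBP factors that direct myeloid commitment and the inflammatory and repair programmes of mature macrophages, in that order. Cebpa (ENSMUSG00000034957.10, chromosome 7 from 35119293 to 35121928, plus strand) was at 763 and 862 CPM in R213G and at 849 and 790.2 CPM in WT. Again both WT libraries lay between the R213G libraries, and the log2 fold change was -0.013 ± 0.12, with an interval from -0.27 to 0.25. Cebpb (ENSMUSG00000056501.3, chromosome 2 from 167688915 to 167690418, plus strand) was at 794 and 574 CPM in R213G and at 552 and 613 CPM in WT. R213G replicate 1 stood above the other 3 libraries. The means were 684 ± 156 CPM in R213G and 582 ± 43.0 CPM in WT. The log2 fold change of 0.23 ± 0.15 (interval -0.11 to 0.58) did not pass the test (edgeR, unadjusted p = 0.166), and without R213G replicate 1 it was -0.020.

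Irf8 and Irf5 belong to the interferon regulatory factors. IRF8 directs monocyte and dendritic cell development, and IRF5 carries Toll-like receptor signals to inflammatory cytokine genes. Irf8 (ENSMUSG00000041515.10, chromosome 8 from 120736358 to 120756694, plus strand) was the steadiest of the 10, at 220.0 and 234 CPM in R213G and 237 and 215 CPM in WT. Its log2 fold change was 0.0043 ± 0.12, with an interval from -0.26 to 0.27. Irf5 (ENSMUSG00000029771.12, chromosome 6 from 29526625 to 29541871, plus strand) was at 316 and 242 CPM in R213G and at 309.9 and 257 CPM in WT. Here replicate 1 was the higher library in both genotypes, and the means, 279 ± 52.4 and 283 ± 37.4 CPM, were close (log2 fold change -0.025 ± 0.15, interval -0.37 to 0.32).

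Runx1 (ENSMUSG00000022952.17, chromosome 16 from 92601466 to 92826149, minus strand), which encodes a factor required for the emergence of blood stem cells and a partner of PU.1, was at 260.5 and 209 CPM in R213G and at 274 and 205 CPM in WT. As for Irf5, the libraries of replicate 1 were both above those of replicate 2. The means were 235 ± 36.3 and 239.8 ± 48.6 CPM, and the log2 fold change was -0.030 ± 0.16 (interval -0.40 to 0.34). Runx1 has 2 RefSeq start windows, Irf8 2 and Mitf 3, and the counts per gene do not separate transcripts from different starts.

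Klf4 (ENSMUSG00000003032.8, chromosome 4 from 55527143 to 55532466, minus strand) encodes a zinc finger factor of monocyte differentiation. It was at 269 and 157 CPM in R213G and at 194 and 193 CPM in WT. The R213G libraries were thus the highest and the lowest of the 4, with the WT libraries together between them. The SD was 78.5 CPM in R213G and 0.491 CPM in WT, where it was below the counting error of 6409 and 6632 counts. The log2 fold change was 0.14 ± 0.21 (interval -0.35 to 0.62). The gap between the R213G libraries, 0.77 on the log2 scale, was larger than that of 99.0% of the 2992 genes at least as abundant as Mitf. The sign of the genotype difference turned with the library left out. It was -0.30 without R213G replicate 1 (edgeR, unadjusted p = 0.0405) and 0.47 without R213G replicate 2 (unadjusted p = 0.00268), and neither passed adjustment over all genes.

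Mitf and Tfec encode MiT factors, basic helix-loop-helix proteins that act on lysosomal and osteoclast genes. TFEC is found mainly in macrophages and osteoclasts. Mitf (ENSMUSG00000035158.15, chromosome 6 from 97807052 to 98021349, plus strand) was at 61.3 and 75.4 CPM in R213G and at 68.5 and 78.1 CPM in WT. It was lower in replicate 1 of each genotype, the opposite of Irf5 and Runx1, and its log2 fold change was -0.10 ± 0.16 (interval -0.46 to 0.25). Tfec (ENSMUSG00000029553.10, chromosome 6 from 16833373 to 16898441, minus strand) was at 116 and 85.7 CPM in R213G and at 77.5 and 90.1 CPM in WT. R213G replicate 1 again stood above the other libraries, which overlapped between genotypes. The means were 101 ± 21.7 and 83.8 ± 8.91 CPM. The log2 fold change of 0.27 ± 0.17 (interval -0.11 to 0.65) was the largest of the 10 and did not pass the test (edgeR, unadjusted p = 0.147). Without R213G replicate 1 it was 0.034.

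Bhlhe40 (ENSMUSG00000030103.11, chromosome 6 from 108660629 to 108666925, plus strand) encodes a repressor that binds E-boxes and acts in the clock, in cytokine control and in macrophage proliferation. It was at 431 and 382 CPM in R213G and at 395 and 356 CPM in WT. Each R213G library was above the WT library of the same number, but R213G replicate 2 was below WT replicate 1. The log2 fold change was 0.12 ± 0.12 (interval -0.15 to 0.38). Leaving out R213G replicate 1 brought it to 0.027, and leaving out WT replicate 2 brought it to 0.042.

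**Figure D2:**
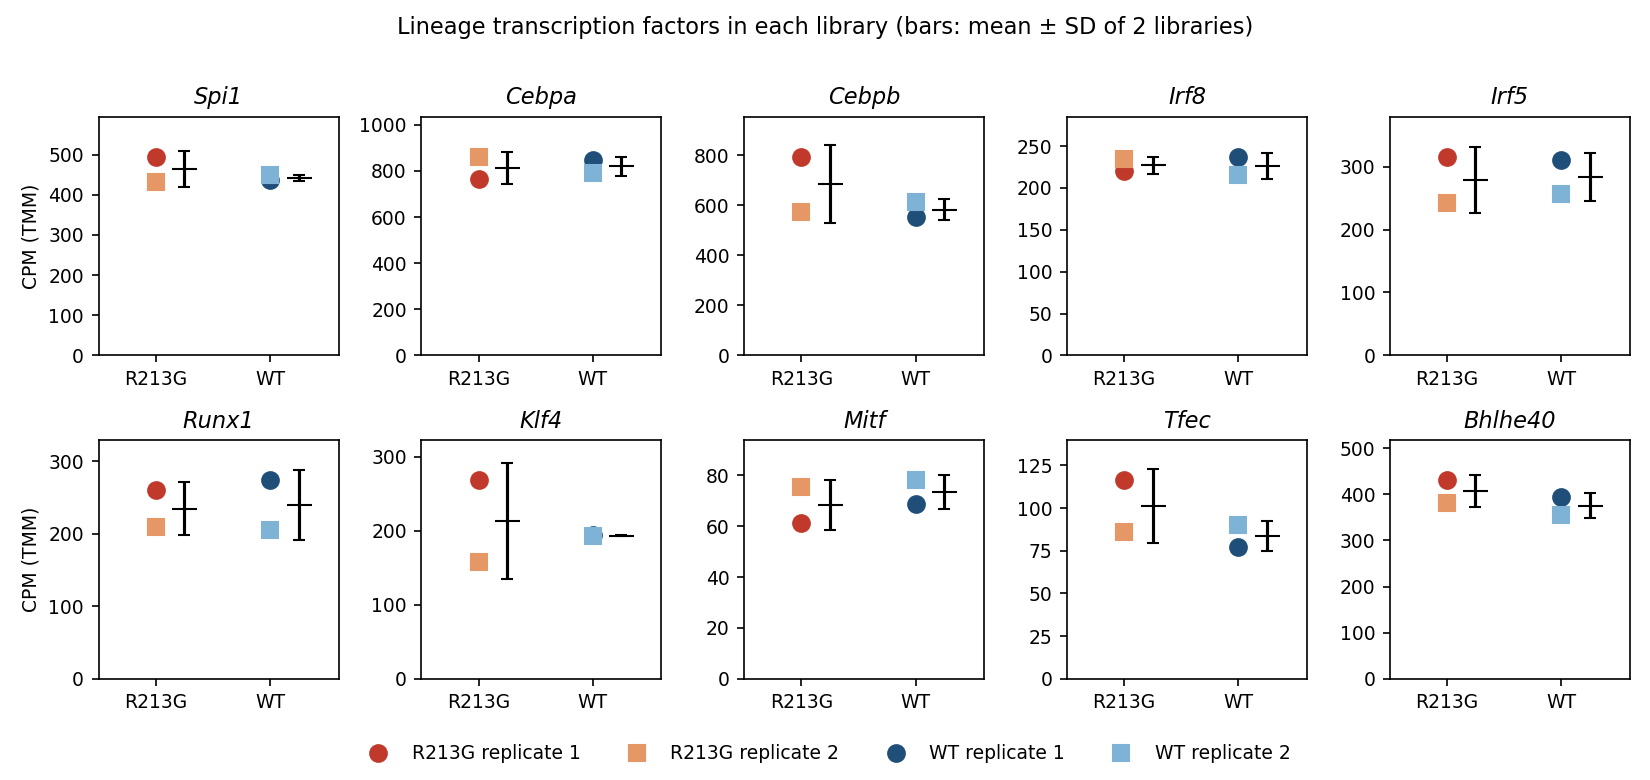
CPM of each factor (vertical axis, from 0) in the 4 libraries, with the mean and SD of each genotype drawn beside the points. The libraries of the genotypes overlap in all 10 panels, and R213G replicate 1 is the highest library for 6 factors.

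The gaps between the libraries of a genotype were set beside the difference between the genotype means. For all 10 the gap between the R213G libraries was larger than the difference between the genotype means, and for 6 of 10 the gap between the WT libraries was larger too. A gap between 2 single libraries varies more than a difference between means of 2, and all 10 R213G gaps rest on the same 2 libraries. Where the genotypes overlap, the larger of the 2 gaps also always exceeds the difference between the means. These counts of factors thus follow in part from the overlap and from the measures compared. Their share over all tested genes was not computed. Over the 4 libraries the SD of log2 CPM had a median of 0.17 for the factors, against 0.11 for the 2992 genes at least as abundant as Mitf. It ran from 0.068 for Irf8, above 18.3% of those genes, to 0.32 for Klf4, above 97.4% of them. R213G replicate 1 was the highest library for 6 factors (Spi1, Cebpb, Irf5, Klf4, Tfec and Bhlhe40) and the lowest for 2 (Cebpa and Mitf), while it was the highest library for 31.2% of all tested genes. This library also had the highest sum of epithelial, endothelial and fibroblast genes, 37.0 against 15.9 to 21.6 in the others. Most of it was the epithelial gene Epcam, at 32.2 CPM against 9.59 to 14.9 CPM. The other genes of this sum did not rise together in this library. Pecam1 was lowest in it, with 24 counts against 50 to 105. Scgb1a1 had 64 counts, below R213G replicate 2 (87) and above the WT libraries (19 and 34). The sum of neutrophil genes was also highest in R213G replicate 1, 21.1 against 12.3 to 16.1. Most of that sum was S100a8. S100a9 had 31 counts in this library and 0 in the others, while Cebpe, Ltf and Cxcr2 had 0 counts in this library. The part of these markers, of the low number of detected genes and of the high Gm42418 of this library in these values was not tested.

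**Figure D3:**
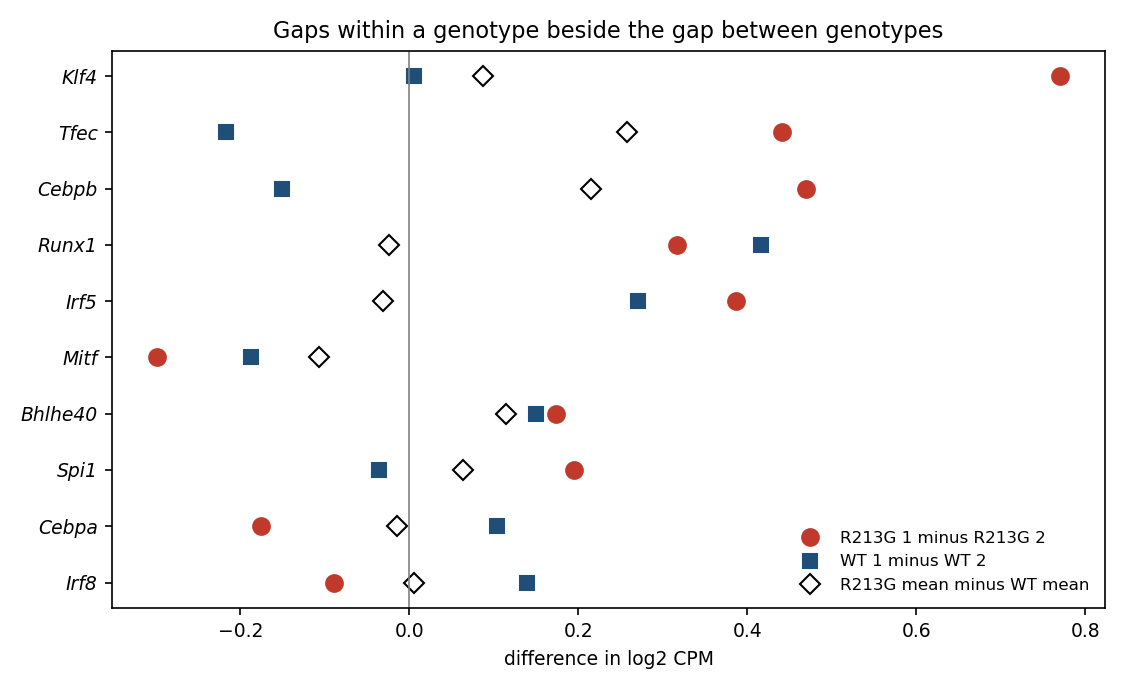
Differences in log2 CPM (horizontal axis) within R213G (red circles), within WT (blue squares) and between the genotype means (open diamonds), by factor. The red circle is farther from 0 than the diamond for all 10 factors, and farthest for Klf4 at 0.77. A gap between single libraries varies more than a difference between means.

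A second pattern followed the replicate number. For 4 factors (Irf5, Runx1, Klf4 and Bhlhe40) both replicate 1 libraries were above both replicate 2 libraries, and for Mitf they were both below. The shares among all tested genes were 18.0% above and 20.1% below. The gap was clear for Irf5 and Runx1, at 0.39 and 0.32 on the log2 scale within R213G and at 0.27 and 0.42 within WT, but for Klf4 it was 0.0052 within WT. The place of Klf4 among the 4 depends on the TMM scaling. On library totals its order within WT turns, with 6409 of 33573116 counts in replicate 1 and 6632 of 34111951 in replicate 2. The summed dendritic cell markers moved the same way (284 and 265 in replicate 1 against 130.3 and 126 in replicate 2), with 6 of its 10 genes higher in both replicate 1 libraries and Xcr1 at 0 counts in them, as did Flt3, the growth factor receptor of dendritic cells, at 20.2 and 30.6 against 6.29 and 7.11 CPM in R213G and WT. Zbtb46, a dendritic cell factor, was at 10.2 and 10.1 against 3.76 and 2.39 CPM. Irf4, a factor of dendritic cells and alternatively activated macrophages, was at 57.7 and 52.1 against 39.8 and 36.5 CPM. Irf8, which dendritic cells also express, did not share the pattern, with its highest value in WT replicate 1 and its next in R213G replicate 2. The sum of the 4 mast cell and erythroid genes in the table also followed the replicate number, at 42.1 (R213G) and 38.7 (WT) against 14.4 and 14.9. Most of it was Kit, at 39.7 and 35.0 against 12.3 and 12.4 CPM. Tal1 did not follow the number in R213G, with 56 and 90 counts against 79 and 76. The others had 0 counts in both R213G libraries. The 6 lymphoid genes summed to 5.32 and 8.64 against 0.227 and 0.997. This was mainly Tcf7, with 82 and 203 counts against 1 and 25, and Cd3e, with 75 and 37 against 0 and 0. The other lymphoid genes had at most 43 counts and did not all follow the number. The part of dendritic or other cells in the values of Irf5 and Runx1 was not tested.

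The ratio of related factors within a library does not depend on the scaling between libraries. For Mitf to Tfec the ratio of counts was 0.527 in R213G replicate 1 but 0.879 in R213G replicate 2, and it was 0.885 and 0.867 in WT. Apart from R213G replicate 1, the libraries of both genotypes thus held Mitf and Tfec in nearly the same proportion. For Cebpa to Cebpb it was 0.961 in R213G replicate 1 and 1.502, 1.54 and 1.29 in the others, so the same library was the lowest. For Irf5 to Irf8 the R213G libraries stood at 1.43 and 1.03 and the WT libraries at 1.31 and 1.19, with both WT values between the R213G values. In all 3 ratios the genotypes overlapped. No test was made of the ratios, which are given as values.

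**Figure D4:**
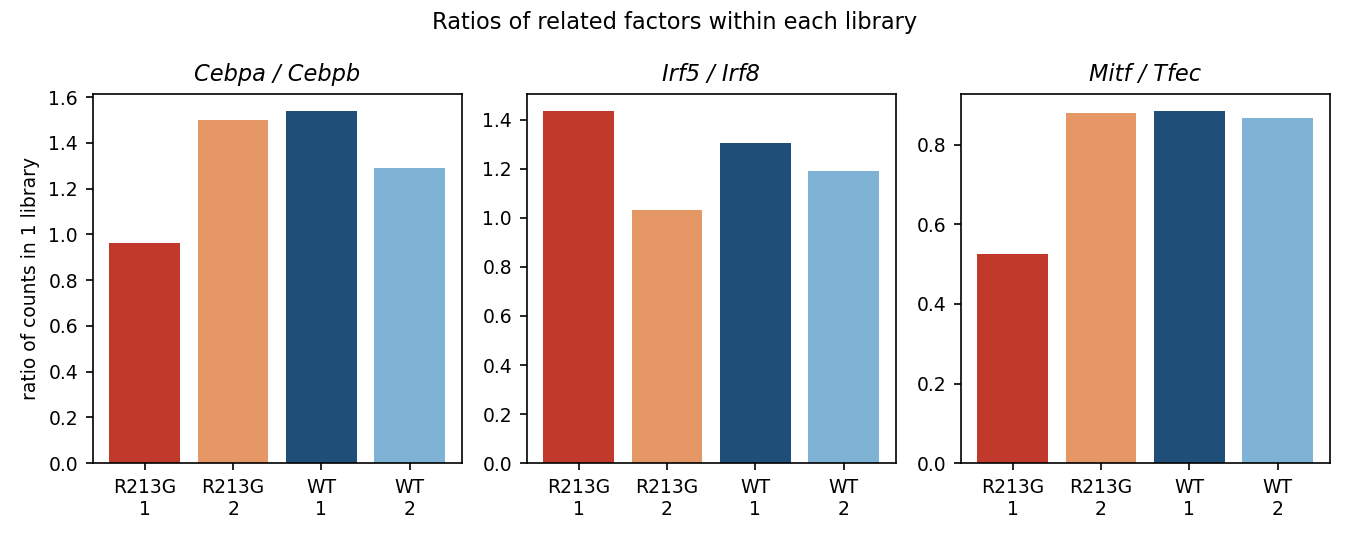
Ratios of counts (vertical axis, from 0) of Cebpa to Cebpb, Irf5 to Irf8 and Mitf to Tfec in each library. R213G replicate 1 has the lowest Cebpa to Cebpb ratio (0.961) and the lowest Mitf to Tfec ratio (0.527), and the other 3 libraries lie close together for Mitf to Tfec.

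Levels between genes were compared as CPM per kilobase of merged exons, averaged over the 4 libraries. Cebpb was the highest at 421, followed by Cebpa at 309.6, Spi1 at 168, Irf5 at 96.7, Bhlhe40 at 83.0, Klf4 at 66.7, Irf8 at 32.1, Runx1 at 19.7, Tfec at 16.5 and Mitf at 11.4. Over single libraries Cebpb ranged from 367 to 528 and Cebpa from 289.6 to 327, so these neighbours did not overlap. The neighbours Irf5 and Bhlhe40, Bhlhe40 and Klf4, and Runx1 and Tfec did overlap over the libraries. The level depends on the length used: per kilobase of the longest transcript Irf8 was at 65.4, Runx1 at 40.5 and Bhlhe40 at 125.5, just above Irf5 at 125.4. Set among 53 transcriptional regulators of myeloid cells by merged exons, these 10 included, Cebpb was first, Cebpa second, Spi1 the third, Irf5 4th, Bhlhe40 6th and Klf4 8th, while Irf8 was 15th, Runx1 26th, Tfec 29th and Mitf 42nd. These places hold among the listed genes only, since regulators outside the lists were not ranked. By the longest transcript the first 3 kept their places. Bhlhe40 was then 4th, Irf5 5th, Klf4 10th, Irf8 11th, Runx1 16th, Tfec 28th and Mitf 39th. Cebpb and Cebpa stood above 99.5% and 99.3% of the 13259 tested genes with an annotated length, and Mitf above 71.4%.

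**Figure D5:**
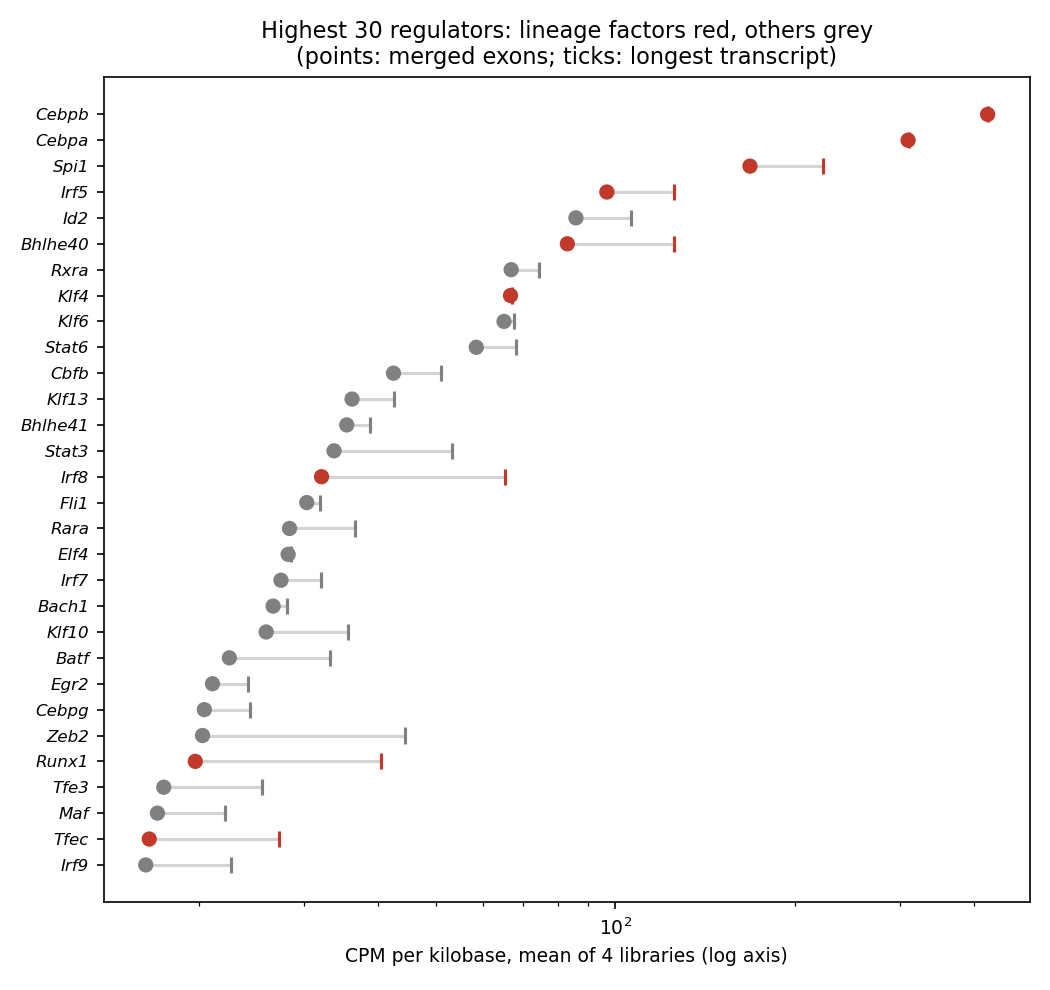
Mean CPM per kilobase (horizontal log axis) of the 30 highest of 53 listed transcriptional regulators, with the lineage factors in red. Points use merged exons and ticks the longest transcript; Cebpb and Cebpa lead by both lengths.

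The close relatives and partners of these factors gave a count of 0 as well. Of 45 genes on this list, which also holds the mRNA-binding protein Zfp36l2, 0 passed the test (edgeR, adjusted over all genes) and 0 had an unadjusted p under 0.05, with 22 positive and 23 negative fold changes and a median of -0.00051. The libraries did not overlap for 3 in the direction of R213G and 7 in the direction of WT, against 13.7% and 15.2% of all tested genes. Cbfb, the subunit that stabilises RUNX1 on DNA, was at 168 and 153 CPM in R213G and at 124 and 146 CPM in WT, with a log2 fold change of 0.24 ± 0.13. Tfeb, the MiT factor of lysosome biogenesis, was at 93.6 and 84.0 against 71.6 and 76.4 CPM (0.26 ± 0.14). Both had all R213G libraries above all WT libraries, but neither reached an unadjusted p of 0.05 (0.0953 and 0.0876, edgeR). Of the abundant partners, Rxra, the retinoid receptor that pairs with other nuclear receptors, was at 341 and 386 CPM in R213G and 371 and 363 CPM in WT, and Zeb2, which maintains tissue macrophage identity, at 347 and 444 against 404 and 425 CPM. Zfp36l2 was at 686 and 712 against 611 and 702 CPM. In these 3 the genotypes overlapped.

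Genes known as targets were read from lists of textbook targets, and 0 of each list passed the test. Of 25 tested targets of PU.1 and C/EBP, 7 had a positive and 18 a negative fold change, with a median of -0.042 beside -0.0056 over all tested genes. The receptor Csf1r, through which macrophages receive their survival signal, was at 1292 and 1314 CPM in R213G and 1363 and 1314 CPM in WT. Csf3r, the receptor of granulocyte colony-stimulating factor, was the only one of the 25 with an unadjusted p under 0.05, at 45.3 and 55.4 CPM in R213G and 74.5 and 68.0 CPM in WT (log2 fold change -0.50 ± 0.16, edgeR unadjusted p = 0.0109). Its libraries did not overlap, as for 4 others of the list, all lower in R213G. This makes 5 of 25, beside 15.2% of all tested genes. Arg1, the arginase induced through C/EBPβ, was at 641 and 497 CPM in R213G and 593 and 779 CPM in WT.

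Of 12 tested IRF5 and IRF8 targets, 6 were positive and 6 negative with a median of -0.027, and 0 had an unadjusted p under 0.05. The invariant chain Cd74 was at 9991 and 6622 CPM in R213G and 8372 and 6908 CPM in WT. Both replicate 1 libraries were above both replicate 2 libraries, as for Irf5 and for 18.0% of all tested genes, but not for Irf8. A link between Cd74 and Irf5 was not tested. The cathepsin Ctss was at 8638 and 8315 CPM in R213G and 8836 and 8107 CPM in WT. Cxcl10, an interferon-induced chemokine, was at 12.9 and 19.1 CPM in R213G and 9.78 and 10.99 CPM in WT, with a log2 fold change of 0.62 ± 0.31 that did not pass (edgeR, unadjusted p = 0.0731). Nlrc5, an activator of MHC class I genes, was at 82.7 and 98.0 against 94.8 and 106 CPM.

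Of 19 tested MiT targets, 7 were positive and 12 negative with a median of -0.059. The glycoprotein Gpnmb was at 2946 and 4006 CPM in R213G and 5014 and 3055 CPM in WT, so the libraries overlapped widely. The cathepsins Ctsd and Ctsb were lowest in R213G replicate 1, at 7625 CPM against 9813 to 11619 CPM and at 8256 CPM against 9386 to 10943 CPM. This library had the lowest Mitf and the highest Tfec, and a link between these values was not tested. Genes outside the list were lowest in it as well, Lyz2 at 19065 CPM against 21736 to 25101 CPM and Cd68 at 1892 CPM against 2046 to 2342 CPM. Dcstamp, of the list, was highest in it. Flcn, the folliculin gene, which restrains MiT factors through lysosomal signalling, was at 89.7 and 118 CPM in R213G and 152 and 130.4 CPM in WT (log2 fold change -0.44 ± 0.16, edgeR unadjusted p = 0.0194). Dcstamp, needed for cell fusion into osteoclasts and giant cells, was at 27.0 and 15.4 CPM in R213G and 13.9 and 11.1 CPM in WT (0.77 ± 0.32, unadjusted p = 0.0415). Neither passed adjustment. Of 4 tested genes reported as regulated by BHLHE40, 3 were positive and 1 negative. Maf was at 114 and 141 CPM in R213G and 165 and 142 CPM in WT, and the proliferation gene Mki67 at 243 and 411 against 227 and 393 CPM, lower in replicate 1 of each genotype. Il10, a cytokine gene repressed by BHLHE40 in lymphocytes, had 0 counts in all 4 libraries.

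By the root-mean-square gap of log2 CPM deviations over the 4 libraries, the genes most like Klf4, the most variable factor, among 9690 genes of at least 5 CPM were AW112010 (gap 0.015), Tmem69 (0.016) and Rpl3 (0.019). AW112010 was at 22.6 and 13.3 CPM in R213G and 16.4 and 15.9 CPM in WT. With 4 libraries, many genes share any given pattern.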

How the data were processed

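The deposited table of the authors holds raw counts for 16360 gene symbols in 4 columns, 1 for each library, from recruited alveolar macrophages of 2 R213G and 2 WT samples. STAR 2.5.1b, featureCounts, Subread 1.4.4 and the build GRCm38 are named in the submitters' processing notes, and per the labels' protocols the libraries were directional. For the strand setting, annotation release and multi-mapped reads, the choice is not given in the sources used here. For that reason, reads from the stretches that Cebpb shares with Tmem189 (312 bases) and Irf5 with Tnpo3 (411 bases), on opposite strands, could be assigned in either way. The label of each sample gives its column name.

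The test was edgeR 4.0.16 quasi-likelihood (newer form, robust) with TMM scaling, filterByExpr by genotype (13575 genes) and Benjamini-Hochberg adjustment at 0.05, in R 4.3.3, with limma 3.58.1 and DESeq2 1.42.0 as alternatives. Intervals are 95% intervals from the SE and total degrees of freedom. The scripts were tested on simulated data of 13575 genes, in which only genes with a mean of at least 5 CPM were changed. Of the genes changed by 1.5-fold, 12.4% were recovered, of those by 2-fold 56.8% and of those by 4-fold 94.4%. No 2 libraries agreed within sampling noise (the smallest chi-square per degree of freedom was 17.5). Positions and lengths came from GENCODE vM21 (GRCm38), matched for 96.7% of symbols. The factors and the lists were chosen with earlier results of these data known. A further gene of the lists is not reported here. All 10 factors are named. Of each other list, the 3 genes of highest mean CPM, the 2 of smallest p and the genes of the sort gate could be named. Flt3, Zbtb46, Xcr1, Il10, Spib, Gm42418, Lars2, Clrn2, Siglecf, Fcgr1, Itgam, Gfi1, S100a9 and Cxcr2 were added after their values were seen. Further alternatives were other scalings and filters, the legacy form, a replicate block and leaving out each library.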

Additional observations from a re-analysis of the deposited data

How the results depend on the processing

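With all 4 libraries, the 9 other settings (other scalings, filters, edgeR form, DESeq2, limma voom and the replicate block) kept the direction of all 10 factors in 90 of 90 values, and 0 factors passed in any of them or in any fit that left out a library. Over the fits that left out 1 library, 28 of 40 values kept their direction. The log2 fold change then ranged from -0.032 to 0.16 for Spi1, -0.11 to 0.073 for Cebpa, -0.020 to 0.45 for Cebpb, -0.064 to 0.075 for Irf8, -0.23 to 0.15 for Irf5, -0.22 to 0.19 for Runx1, -0.30 to 0.47 for Klf4, -0.26 to 0.040 for Mitf, 0.034 to 0.47 for Tfec and 0.027 to 0.20 for Bhlhe40. The median over the 10 ranged from 0.0035 to 0.16 against 0.036 with all libraries, and the highest value came without R213G replicate 2. In that fit 3 factors (Cebpb, Klf4 and Tfec) had an unadjusted p under 0.05, and in the fit without R213G replicate 1 it was 1 (Klf4). The number of genes called over the whole table was 0, with 0 to 2 when a library was left out; the 2, Gm42418 and Lars2, were called without R213G replicate 2. DESeq2 called 1 (Clrn2). At an unadjusted p under 0.05 the number was 302, against 150 with a mean of at least 5 CPM, 201 by limma voom, 1960 without R213G replicate 2 and 71 without WT replicate 1. The replicate block gave 0 factors called, a median of 0.035 and 298 genes at an unadjusted p under 0.05. The deviations of same-numbered libraries correlated with r = 0.19 over 9690 genes, and nothing in the labels says that the numbers pair the samples. Per kilobase of merged exons, the mean ratios in R213G and WT were 0.703 and 0.807 for Cebpa to Cebpb instead of 1.23 and 1.41, 2.995 and 3.03 for Irf5 to Irf8 instead of 1.23 and 1.25, and 0.634 and 0.791 for Mitf to Tfec instead of 0.703 and 0.876, since the division by length differs between the genes of a pair. No factor was without overlap by either CPM scaling. A fit that leaves 1 library in a genotype assumes that it varies like the others.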

Other observations

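Of the 10 factors, 5 share exon bases with an annotated gene on the opposite strand. The antisense transcript Gm45091, which shares 51 bases with Cebpa, had counts of 260 and 160 in the replicate 1 libraries (R213G, then WT) and of 95 and 72 in the replicate 2 libraries, higher in replicate 1 of each genotype, while the counts of Cebpa were 26060 and 28064 in replicate 1 and 29992 and 27117 in replicate 2. Tmem189, beside Cebpb, had between 4478 and 4681 counts, so it did not share the high value of Cebpb in R213G replicate 1. Tnpo3, beside Irf5, had between 2944 and 3291 counts. The antisense transcripts beside Bhlhe40 and Runx1 had at most 47 counts. The strand setting of the counting is not given in the sources used here, and these genes were named after their values were seen.

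Of the factor genes that mark other lineages, Tcf4, a factor of plasmacytoid dendritic cells among others, was at 71.8 to 74.8 CPM in the 4 libraries. Spib, a close relative of Spi1 in lymphoid and plasmacytoid dendritic cells, was at 4.45 and 2.16 CPM in R213G and 6.93 and 0.699 CPM in WT. Cebpe, the C/EBP factor of granulocyte maturation, had 0 counts in R213G replicate 1, 72 in R213G replicate 2, and 25 and 42 in the WT libraries. Tcf7, a T cell factor, had counts of 82 (R213G) and 203 (WT) in replicate 1 and of 1 and 25 in replicate 2.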
